A study of Mus musculus with 6 samples.

Results

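The genes described here encode the integrin chains of keratinocytes. They comprise 10 genes, 6 for α chains (Itga2, Itga3, Itga5, Itga6, Itga9 and Itgav) and 4 for β chains (Itgb1, Itgb4, Itgb6 and Itgb8), out of 43274 genes in the expression table. They were chosen by name, as the chains that pair in the epidermis and hair follicle and the chains that activate latent Tgf-β, with earlier results of these data known. All 10 were found in the table by their Ensembl identifiers. All averaged enough reads over the libraries to be tested, Itga9 only through its ILK-K5 libraries.

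Transcriptomes were measured by RNA-seq in bulge SCs, the stem cells of the hair follicle, which were sorted by FACS from mouse epidermis at postnatal day 21 as CD34+ cells with high α6 integrin on their surface. Integrin-linked kinase (ILK) was removed with a Cre recombinase driven by the K5 promoter, which is active in basal keratinocytes and not only in bulge SCs. The 3 control libraries came from ILK fl/+ K5-Cre littermates (genotype label ILK +/-), which carry the same Cre and 1 floxed allele, and the 3 ILK-K5 libraries from ILK fl/fl K5-Cre mice (genotype label ILK -/-). The labels do not say whether libraries of a genotype came from separate animals, so that p-values measure the spread between libraries only.

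Integrins are heterodimers of an α and a β chain that bind extracellular matrix outside the cell and the cytoskeleton inside it. In basal keratinocytes α6β4 anchors hemidesmosomes to laminin, α3β1 binds laminin at focal adhesions and α2β1 binds collagen, whereas α5β1 binds fibronectin and α9β1 binds tenascin-C and osteopontin. The αvβ6 and αvβ8 integrins bind the latency peptide of Tgf-β and release the active growth factor. ILK is an adaptor that binds the cytoplasmic tail of β1 integrins and links it, through parvins, to actin.

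Libraries held between 8228019 and 11969072 reads on genes, and values are given as normalized counts, meaning reads divided by 1 size factor per library, so that 1 read equalled between 0.726 and 1.52 normalized counts. The 10 integrin genes together took between 0.0824% and 0.143% of these reads. Basal keratinocyte transcripts were abundant in both genotypes, with 6 of 6 markers (such as Krt5, Krt14 and Trp63) above the limit for low counts, as the label of the cells requires, and 0 of them called by limma, DESeq2 or edgeR (2 at an unadjusted limma p under 0.05). The libraries also differed in transcripts of other cells. All 10 macrophage markers rose in ILK-K5 (9 or 10 in fits that left out 1 library), where 2.93% of all genes tested were called higher. Their summed level was 89.7 to 121 normalized counts in control and 9552 to 13250 in ILK-K5. C1qa, C1qb, C1qc, Mrc1, Cd14 and Fcgr1 passed the limit for low counts only through their ILK-K5 libraries. With no such limit all 10 were called. Of the 10, 4 (C1qa, C1qb, Cd14 and Fcgr1) had at most 3 reads in every control library. Of the testable markers of other cells, 1 of 4 T cell genes (Cd2) and 1 of 4 fibroblast genes (Col3a1) rose, 1 of 4 melanocyte genes (Mitf) and 1 of 5 differentiated keratinocyte genes (Lor) fell, and 0 of 2 endothelial genes were called by limma or edgeR and 1 by DESeq2 (1 at an unadjusted limma p under 0.05). The other 3 melanocyte genes had positive log2 fold changes. DESeq2 called 2 of the 4 T cell genes and 2 of the 4 melanocyte genes. Tyrp1 was the melanocyte gene it called higher (log2 fold change 3.29 in limma, adjusted p = 0.119 in limma and 0.0123 in DESeq2). Cd2 and Tyrp1 passed the limit for low counts only through their ILK-K5 libraries. Among bulge SC markers, Cd34 itself, which encodes the protein used for sorting, was lower in ILK-K5 with a log2 fold change of -1.90 ± 0.37 (SE, adjusted p = 0.0239 in limma, the call being lost in 4 of the 6 fits that left out a library, with values up to 0.0910), and the other 6 of 7 were not called. In sorted populations fewer cells of a type and less RNA per cell cannot be told apart. Reads on Ilk were not used to check the genotype. Of its 2744 annotated exon bases (chromosome 7, 105736592 to 105742925, GRCm38), 89.7% are also exons of Taf10 or Rrp8 on the opposite strand, and whether counting used strand is not given. Ilk held 11, 11 and 53 reads in control libraries 1, 2 and 3 and 13, 40 and 30 reads in the ILK-K5 libraries. Its log2 fold change was 0.30 ± 0.64 (SE, adjusted p = 0.933).

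Of the 10 integrin genes, Itga9 and Itga5 rose in ILK-K5, and the other 8 were not called in either direction. This is 2 of 10 called higher, where 2.93% of the 16368 genes tested were called higher, 0.599% lower and 3.53% in either direction. Itga9 entered the test only through its ILK-K5 libraries, its control mean of 9.68 normalized counts being under the limit of 10. With no limit for low counts the same 2 genes were called. The test was limma on log2(normalized count + 1), called at an adjusted p of at most 0.05. Of the 8 that were not called, 6 had a positive and 2 a negative log2 fold change, and the median over all 10 was 0.27, against 0.0054 over all genes tested. The genotypes did not overlap for 4 of the 10 genes (Itga5, Itga9 and Itgb8 higher, Itga2 lower in ILK-K5), where this was so for 17.9% of all genes tested (10.9% higher, 6.95% lower). On the recovered reads DESeq2, which called 6.43% of its genes, and edgeR, which called 3.11%, each called the same 2 integrin genes. At an unadjusted p under 0.05, limma held 3 of the 10 (Itga9, Itga5 and Itga3), where it held 12.3% of all genes.

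**Figure D1:**
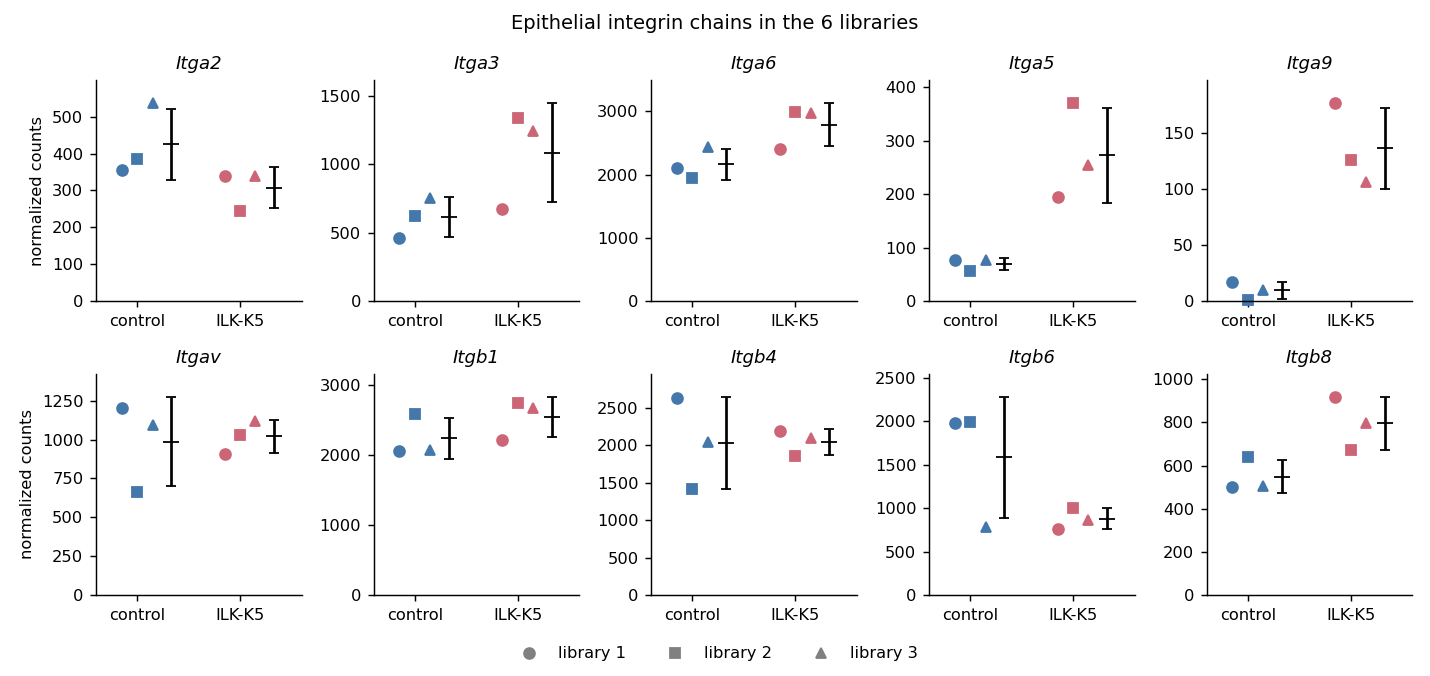
Normalized counts (y axis, starting at 0, scaled per gene) of each of the 10 integrin genes in the 3 control (blue) and 3 ILK-K5 libraries (red). Symbols mark the library number and black bars the mean ± SD; the ILK-K5 points lie wholly above control for Itga5, Itga9 and Itgb8 and wholly below for Itga2.

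Itga9 encodes α9, which pairs with β1, and lies on chromosome 9 (118606690 to 118901003, plus strand, GRCm38). It was the least abundant chain of control bulge SCs, with 17.4, 1.52 and 10.2 normalized counts in control libraries 1, 2 and 3, the second of these resting on 1 read and the others on 18 and 14. In ILK-K5 libraries 1, 2 and 3 it reached 176, 126 and 106 normalized counts, from 155, 164 and 109 reads. Every ILK-K5 library thus stood several times above every control library, although the control libraries differed 11.4-fold among themselves. The mean rose from 9.68 ± 7.93 to 136 ± 36.2 (SD, n = 3 each). On the log2(normalized count + 1) scale the change was 4.07 ± 0.73 (SE), or 16.7-fold with a 95% confidence interval from 5.32 to 52.7 (adjusted p = 0.0166). DESeq2 gave a smaller log2 fold change of 3.75. The size depended on the control libraries, with a log2 fold change of 3.23 without control library 2 and 4.66 without control library 1, and it was 3.16 in the FPKM table with a pseudocount of 0.1. The call was lost when any 1 ILK-K5 library was left out (adjusted p of 0.0764, 0.0797 and 0.0617 without library 1, 2 and 3) but not when any 1 control library was, and over all 18 alternatives the adjusted p lay between 9.71e-08 and 0.0797.

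Itga5, which encodes the fibronectin-binding α5 chain, lies on chromosome 15 (103344286 to 103366763, minus strand). Control libraries held 76.2, 56.3 and 76.9 normalized counts, and ILK-K5 libraries 195, 369 and 255. The control values lay close together, and the lowest ILK-K5 value was well above the highest control value. The mean rose from 69.8 ± 11.7 to 273 ± 88.7 (SD, n = 3 each). In limma, on the log2(normalized count + 1) scale, the change was 1.92 ± 0.36 (SE). This is 3.78-fold with a 95% confidence interval from 2.17 to 6.58 (adjusted p = 0.0187). The call was lost without control library 2 (adjusted p = 0.0783), ILK-K5 library 2 (0.131) or ILK-K5 library 3 (0.0961), and over all alternatives the adjusted p lay between 4.31e-05 and 0.131. With only libraries 2 and 3 of each genotype, which share a number in the labels that library 1 does not have, the log2 fold changes were 2.21 for Itga5 (adjusted p = 0.0235) and 4.46 for Itga9 (adjusted p = 0.0284).

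**Figure D2:**
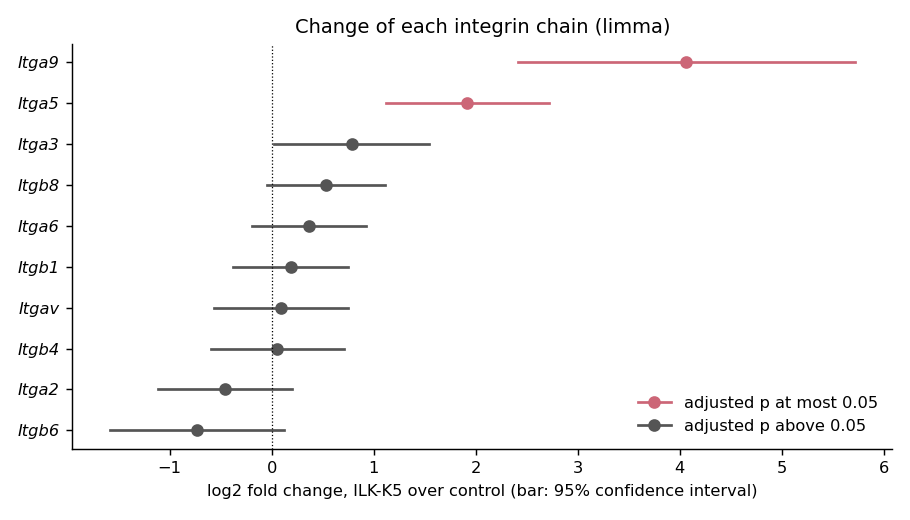
Log2 fold change of each integrin gene in ILK-K5 over control (points, x axis) with its 95% confidence interval (bars) from limma, ordered by size. Itga9 at 4.07 and Itga5 at 1.92 (red) were called, and the other 8 (grey) were not, with values from -0.74 for Itgb6 to 0.79 for Itga3.

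Most of the tested chains that leukocytes use also rose. Of 9 leukocyte integrin chains 6 passed the limit for low counts and 5 of these rose, where 2.93% of all genes tested were called higher. Itga4, the remaining tested chain, overlapped between the genotypes and was not called (log2 fold change 0.75, adjusted p = 0.754 in limma). Itgb2 and Itgal passed it only through their ILK-K5 libraries, and with no such limit 5 of the 9 were called, 8 had a positive log2 fold change and the median was 2.83. Itgb2, the common β chain of leukocytes, had 12.5, 3.04 and 0 normalized counts in control and 389, 498 and 499 in ILK-K5 (log2 fold change 6.92, adjusted p = 0.00198). Itgax, the αX chain of dendritic cells and macrophages, rose by 6.21 (adjusted p = 7.82e-05), and Itgal, the αL chain, by 5.68 (adjusted p = 0.00148). Itgam and Itgae were the other 2 called, Itgae losing its call without any 1 of the ILK-K5 libraries (adjusted p up to 0.124). Itgam was already present in control at 197, 190.1 and 45.7 normalized counts and reached 2058, 1903 and 1712 in ILK-K5. Itga5 and Itga9 are not confined to epithelium, since macrophages and granulocytes are also known to express α5 and α9, respectively. The part that transcripts of such cells had in the rise of Itga5 and Itga9 was not tested.

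**Figure D3:**
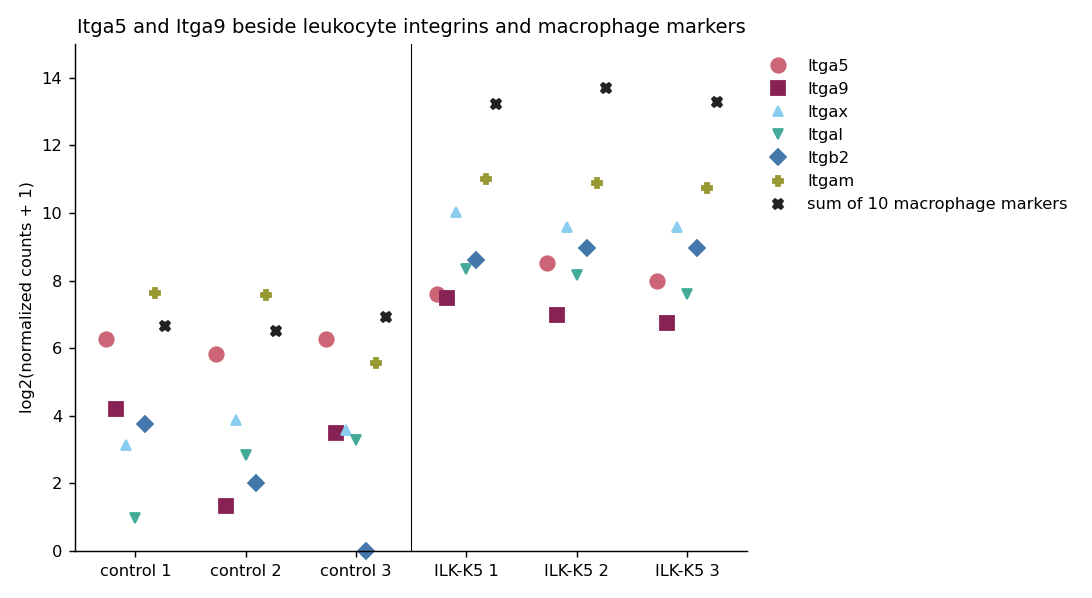
Level of Itga5, Itga9, 4 leukocyte integrin chains and the sum of 10 macrophage markers in each library, on the y axis as log2(normalized counts + 1), with control libraries left and ILK-K5 libraries right of the line. All plotted series are higher in every ILK-K5 library than in any control library, and Itga5 is the one with the smallest step.

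The genes whose profile over the 6 libraries was most like that of Itga9, out of 8508 genes that averaged 100 or more normalized counts, were Mmp19, Alox5ap and Pirb. Each of them reached this average only through its ILK-K5 libraries. Likeness was the root mean square difference of the centred log2 values, which was 0.265 for Mmp19, 0.402 for Alox5ap and 0.466 for Pirb. Mmp19, a matrix metalloproteinase, had 25.1, 4.56 and 21.8 normalized counts in control and 386, 185 and 175 in ILK-K5. As with Itga9, control library 2 was its lowest and ILK-K5 library 1 its highest. For Itga5 the most alike genes were Slc23a2 (0.212), a vitamin C transporter, Arrb2 (0.226), a β-arrestin, and Lgals9 (0.234), galectin-9. Of these, Arrb2 reached the average of 100 only through its ILK-K5 libraries. Slc23a2 had 159, 170.3 and 196 normalized counts in control and 475, 1163 and 772 in ILK-K5, with ILK-K5 library 2 the highest, as for Itga5. These genes were ranked on the same libraries, so their likeness is a description only.

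Among the laminin-binding chains, Itga6 encodes α6 (chromosome 2, 71745616 to 71858416, plus strand), the partner of β4 and the protein on which the cells were sorted. Control libraries held 2098, 1955 and 2441 normalized counts, and ILK-K5 libraries 2403, 2993 and 2975. The lowest ILK-K5 value lay just below the highest control value. The log2 fold change of 0.36 ± 0.25 (SE) had a 95% confidence interval from -0.19 to 0.92 (adjusted p = 0.699). Since the gate required high α6 protein in both genotypes, a change in cells outside the gate would not be seen.

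Itgb4 encodes β4, the chain that is particular to hemidesmosomes (chromosome 11, 115974709 to 116008412, plus strand). Its values of 2638, 1419 and 2042 in control surrounded those of ILK-K5, which were 2190.4, 1856 and 2103. The means of 2033 ± 609.6 and 2049.7 ± 174 (SD, n = 3 each) were close, with a log2 fold change of 0.05 and a 95% confidence interval from -0.60 to 0.70 (adjusted p = 0.975). The sign turned to -0.18 without control library 2, the lowest of the 6. A minor share of the Itgb4 exon bases, 7.66%, is shared with B230344G16Rik on the opposite strand.

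Of the other components of hemidesmosomes and the tetraspanins that bind laminin-binding integrins, 0 of 7 were called by limma, DESeq2 or edgeR, and 0 had an unadjusted p under 0.05. The smallest adjusted p belonged to Dst, which encodes the plakin BPAG1, at 0.613 (log2 fold change -0.82). Col17a1, which encodes the transmembrane collagen of hemidesmosomes, varied among control libraries as Itgb4 did, with 33024, 15228 and 20249 normalized counts in control and 20785, 15391 and 15818 in ILK-K5. The median log2 fold change of the 7 genes was -0.28.

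Itga3 encodes α3, a β1 partner that binds laminins (chromosome 11, 95044474 to 95076801, minus strand). Control libraries held 463, 625 and 758 normalized counts and ILK-K5 libraries 675, 1339.7 and 1244. ILK-K5 libraries 2 and 3 were above all controls, while ILK-K5 library 1 fell between control libraries 2 and 3. The log2 fold change was 0.79 ± 0.34 (SE), with a 95% confidence interval from 0.027 to 1.54, and the gene was not called (adjusted p = 0.375, with 0.0593 to 0.922 over the alternatives).

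Itgb1, the common β1 chain and the one that binds ILK, lies on chromosome 8 (128685654 to 128733200, plus strand). It had 2054, 2583 and 2080.3 normalized counts in control and 2214, 2739.5 and 2673 in ILK-K5. The ranges overlapped, and the spread within each genotype was about as large as the step between them. The log2 fold change was 0.18 ± 0.25 (SE), with a 95% confidence interval from -0.38 to 0.74 (adjusted p = 0.885), so that a change of up to 1.68-fold upwards or to 0.771 of the control level downwards lay within the interval.

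The collagen-binding chain α2 is encoded by Itga2 on chromosome 13 (114833081 to 114932100, minus strand). Control libraries held 354, 385 and 535 normalized counts, and ILK-K5 libraries 339, 244 and 340.0. All ILK-K5 values were below all control values, the gap between the closest 2 libraries being small. The log2 fold change of -0.46 ± 0.29 (SE), with a 95% confidence interval from -1.11 to 0.20, was not called (adjusted p = 0.666).

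Itgav, Itgb6 and Itgb8 encode the chains of the integrins that activate latent Tgf-β. Itgav (chromosome 2, 83724397 to 83806916, plus strand) encodes the α chain that β6 and β8 share, and 5.90% of its exon bases are shared with Gm13684 on the opposite strand. Control libraries held 1201, 663 and 1096 normalized counts and ILK-K5 libraries 907, 1031 and 1121. The 3 ILK-K5 values lay inside the control range, and the log2 fold change was 0.09 ± 0.29 (SE, adjusted p = 0.959), which turned to -0.17 without control library 2.

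Itgb6 (chromosome 2, 60598292 to 60722643, minus strand) had 1983, 1989 and 784 normalized counts in control and 765, 1009 and 867 in ILK-K5. Control libraries 1 and 2 were above all ILK-K5 libraries, while control library 3 was at the ILK-K5 level. The log2 fold change was -0.74 ± 0.38 (SE), with a 95% confidence interval from -1.59 to 0.12 (adjusted p = 0.525). Without control library 3 it was -1.18, with an adjusted p of 0.0501, and over all alternatives the adjusted p lay between 0.0501 and 0.878. This was the chain with the largest spread among control libraries other than Itga9, at a coefficient of variation of 43.8% against 13.9% in ILK-K5.

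Itgb8 (chromosome 12, 119158022 to 119238802, minus strand) is the second β chain of this group. Control libraries held 503, 639 and 506 normalized counts and ILK-K5 libraries 915, 673 and 797. The genotypes did not overlap, with control library 2 and ILK-K5 library 2 close to each other. Its log2 fold change of 0.53 ± 0.26 (SE) had a 95% confidence interval from -0.046 to 1.11 and was not called (adjusted p = 0.474).

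The genes of the latent Tgf-β complex on which these integrins act gave 0 of 6 called by limma or edgeR and 2 by DESeq2 (3 at an unadjusted limma p under 0.05), with a median log2 fold change of 0.92. In fits that held all 6 genes this median was positive, from 0.38 without control library 1 to 1.44 without control library 3. Over the 4 genes that averaged 50 or more normalized counts it was -0.38, so that its sign depended on which genes were kept. Nrros, which encodes the anchor of latent Tgf-β on myeloid cells, had the smallest adjusted p at 0.0615 (log2 fold change 2.33, 0.00245 in DESeq2). Tgfb1, the ligand precursor, had 15.4, 38.0 and 68.2 normalized counts in control and 114, 219 and 163 in ILK-K5, without overlap (log2 fold change 2.18, adjusted p = 0.0740 in limma and 0.00952 in DESeq2). Ltbp1, which stores the complex in the matrix, was lower in every ILK-K5 library than in any control library but was not called (log2 fold change -1.21, adjusted p = 0.290). The macrophage markers rose in the same libraries, and their part in the values of Nrros and Tgfb1 was not tested.

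Levels of different genes were compared as FPKM, which divides by gene length. In control the order by mean FPKM was Itgb1 (56.3), Itgb4 (29.7), Itga6 (24.6), Itgb6 (22.9), Itga3 (11.1), Itga2 (10.3), Itgav (9.42), Itgb8 (5.09), Itga5 (1.63) and Itga9 (0.129). The ranges of neighbours in this order did not overlap between Itgb1 and Itgb4, between Itgav and Itgb8, between Itgb8 and Itga5 and between Itga5 and Itga9, and all other neighbours overlapped. In ILK-K5 the order was Itgb1 (63.9), Itga6 (31.7), Itgb4 (30.0), Itga3 (19.5), Itgb6 (12.7), Itgav (9.73), Itga2 (7.49), Itgb8 (7.37), Itga5 (6.40) and Itga9 (1.82). There the overlapping neighbours were Itga6 and Itgb4, Itga3 and Itgb6, Itga2 and Itgb8, and Itgb8 and Itga5. Itgb1 was thus the most abundant chain and Itga9 the least abundant in both genotypes, whereas Itga5, clearly below Itgb8 in control, reached its range in ILK-K5.

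Summed over the 6 α chains, mRNA levels were 57.2 ± 8.53 FPKM in control and 76.7 ± 11.6 in ILK-K5 (SD, n = 3 each), and summed over the 4 β chains 114 ± 13.8 and 114 ± 5.85 FPKM. As a share of the α sum, Itga6 held 43.2% ± 1.42 in control and 41.5% ± 1.46 in ILK-K5, the smallest difference in share among the α chains. Itga5 held 2.87% ± 0.370 and 8.24% ± 1.76, Itga9 0.223% ± 0.194 and 2.48% ± 1.08, and Itga2 18.0% ± 1.88 and 10.05% ± 2.99. Of the β sum, Itgb8 held 4.49% ± 0.625 and 6.51% ± 1.30, Itgb6 19.5% ± 6.92 and 11.1% ± 1.17, and Itgb1 49.7% ± 6.83 and 56.0% ± 3.64. Shares of Itga2, Itga5, Itga9 and Itgb8 did not overlap between genotypes. Their two-sided exact permutation p was 0.1, the smallest that 3 against 3 libraries can give (0.25 after adjustment over the 10 shares), so that none of these comparisons could pass the threshold.

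**Figure D4:**
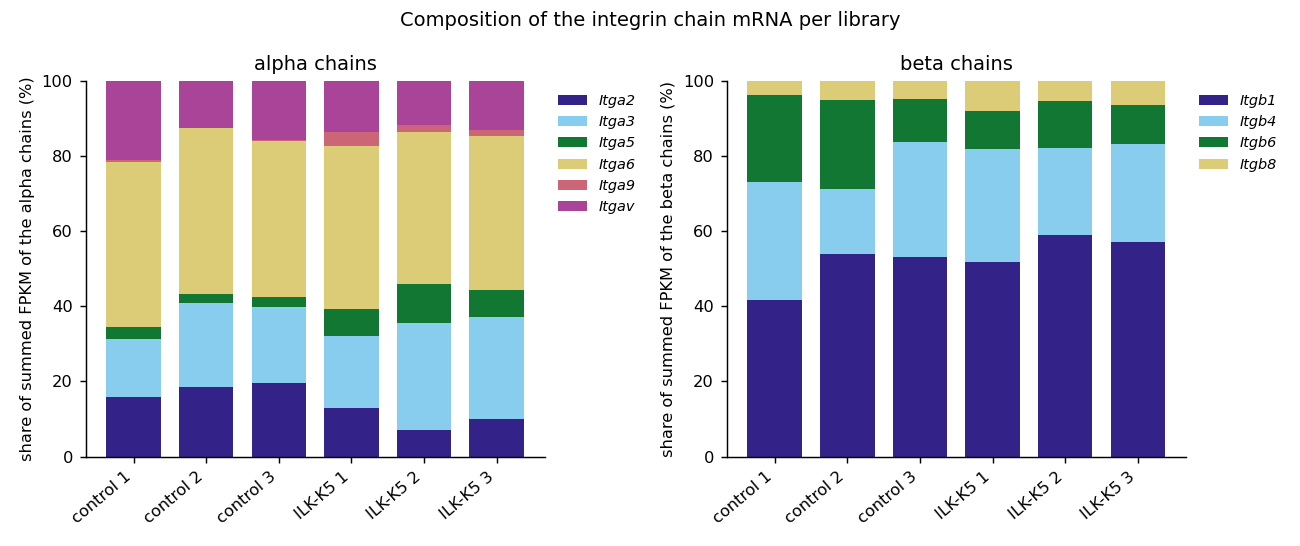
Share of each chain (y axis, percent) in the summed FPKM of the 6 α chains (left) and the 4 β chains (right) in each of the 6 libraries. In ILK-K5 the Itga2 segment is smaller (10.05% against 18.0% on average) and the Itga5 and Itga9 segments are larger, while the Itga6 segment is 43.2% and 41.5% on average.

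Ratios of chains within a library do not depend on the size factors. The FPKM ratio of Itga5 to Itga2, fibronectin-binding to collagen-binding α chain, was 0.207, 0.141 and 0.138 in control and 0.552, 1.45 and 0.722 in ILK-K5. The genotypes were wholly apart, and the ratio was 5.24-fold higher in ILK-K5 (exact permutation p = 0.1, adjusted over 4 ratios 0.2). A ratio still depends on the mix of cells, and the part that macrophage transcripts had in this one was not tested. The ratio of Itgb6 to Itgb8, the β chains that activate Tgf-β, was 6.13, 4.84 and 2.41 in control and 1.30, 2.33 and 1.69 in ILK-K5. These also did not overlap, with control library 3 and ILK-K5 library 2 nearly touching (log2 difference -1.27, exact permutation p = 0.1, adjusted 0.2). The ratio of Itga3 to Itga6 was 0.448 ± 0.0865 in control and 0.604 ± 0.141 in ILK-K5 (exact permutation p = 0.3, adjusted 0.4). That of Itgb4 to Itgb1 was 0.546 ± 0.215 and 0.476 ± 0.0920 (exact permutation p = 0.8), with control library 2 the lowest at 0.319 and control library 1 the highest at 0.747.

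The sequences directly upstream of the RefSeq start (250 bases, GRCm38.p6, printed 5′ to 3′ on the strand of the gene) are shown for the pair with the widest change in ratio, Itga5 and Itga2, and for Itgb1, the most abundant chain. The windows are chr15:103366792-103367041 (minus strand) for Itga5, chr13:114932101-114932350 (minus strand) for Itga2 and chr8:128685404-128685653 (plus strand) for Itgb1, and 0 bases of each lie in annotated exons. Capitals mark the GC box GGGCGG, the letters bound by Sp1, on either strand.
Itga5: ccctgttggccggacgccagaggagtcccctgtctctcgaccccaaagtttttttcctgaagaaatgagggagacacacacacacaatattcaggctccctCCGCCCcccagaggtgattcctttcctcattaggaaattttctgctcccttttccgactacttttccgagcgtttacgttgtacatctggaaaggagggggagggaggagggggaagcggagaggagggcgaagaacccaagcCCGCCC
Itga2: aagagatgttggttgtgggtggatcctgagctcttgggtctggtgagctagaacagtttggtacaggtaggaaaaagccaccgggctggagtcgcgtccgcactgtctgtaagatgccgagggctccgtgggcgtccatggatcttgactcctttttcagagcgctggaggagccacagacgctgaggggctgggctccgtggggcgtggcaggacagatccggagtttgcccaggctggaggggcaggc
Itgb1: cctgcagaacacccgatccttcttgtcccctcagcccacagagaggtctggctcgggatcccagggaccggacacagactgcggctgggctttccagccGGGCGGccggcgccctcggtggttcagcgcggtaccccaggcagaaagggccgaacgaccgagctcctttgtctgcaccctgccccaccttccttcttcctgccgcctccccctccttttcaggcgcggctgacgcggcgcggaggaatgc
Itga5 held 2 GC boxes, both on the reverse strand, at 149 to 144 and at 6 to 1 bases before the start, Itgb1 held 1 on the forward strand at 151 to 146, and Itga2 held 0. Of 32851 windows of this length in the RefSeq table, 32.7% held at least 1. The AP-1 letters TGANTCA, the CCAAT box and the TATA box TATAAA, each searched on both strands, were found in 0 of the 3 windows, so that no motif overlapped another, and in 6.75%, 33.8% and 12.4% of all windows. GC content was 55.6% for Itga5, 60.8% for Itga2 and 68% for Itgb1.

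Matrix ligands of these integrins were described from a list of 17 genes, of which 15 could be tested, 2 rose and 1 fell. Fn1, fibronectin, the ligand of α5β1, had 135, 73 and 318 reads in control libraries 1, 2 and 3 and 2898, 3560 and 1939 reads in ILK-K5. The genotypes were far apart (log2 fold change 4.10, adjusted p = 3.68e-04). Spp1, osteopontin, a ligand of α9β1 and αv integrins, had 0, 3 and 0 reads in control and 271, 154 and 159 reads in ILK-K5, at least 60.4-fold higher than 3 reads per control library would give (adjusted p = 0.00214). It passed the limit for low counts only through its ILK-K5 libraries. Macrophages are known to make both ligands, and fibroblasts fibronectin. The sum of the fibroblast markers was 703 to 779 normalized counts in control and 1532 to 2493 in ILK-K5, with Col3a1 the 1 of 4 called, and their part and that of macrophage transcripts was not tested.

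Npnt, nephronectin, a basement membrane ligand of α8β1, was the matrix ligand that fell. It had 7194, 5080.2 and 4211 normalized counts in control and 1770.3, 1714 and 2701 in ILK-K5, without overlap (log2 fold change -1.41, adjusted p = 0.0413 in limma, 0.0579 in edgeR). The call was kept in 1 of the 6 fits that left out a library, the one without control library 3, and was lost in the other 5 (adjusted p up to 0.209). Tnc, tenascin-C, another ligand of α9β1, had 3164, 1445 and 1789 normalized counts in control and 4013, 3987 and 3275 in ILK-K5. The genotypes did not overlap, but Tnc was not called (log2 fold change 0.89, adjusted p = 0.263).

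Of 8 further non-leukocyte integrin chains, 5 could be tested and 0 were called by limma or edgeR and 1 by DESeq2 (3 at an unadjusted limma p under 0.05). Itga8, the nephronectin receptor chain, had 18.3, 10.6 and 10.2 normalized counts in control and 50.1, 42.4 and 47.7 in ILK-K5 (log2 fold change 1.81, adjusted p = 0.112, and 0.0264 in DESeq2). Itga1, a collagen-binding chain, was also higher in every ILK-K5 library, at 240.2, 266 and 254 against 159, 119 and 126 in control (log2 fold change 0.92, adjusted p = 0.163). Both were named for their separation after the values were seen, Itga8 also as the gene with the smallest adjusted p.

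The adaptors that connect integrin tails to actin were tested for 15 of 16 genes, of which 1 was called. All 15 log2 fold changes were positive, with a median of 0.54, where 8265 of all 16368 genes tested had a positive one. The 15 include Ilk itself, whose reads lie mostly on exon bases shared with other genes and were not used to check the genotype. After quantile scaling 13 of the 15 were positive, and without control library 1 it was 12 of 15. Parvb, β-parvin, an actin-binding partner of ILK, had 1, 3 and 1 reads in control and 30, 49 and 28 reads in ILK-K5, at least 10.3-fold higher than 3 reads per control library would give (adjusted p = 0.0326, lost in 4 of the 6 fits that left out a library, with values up to 0.236). It passed the limit for low counts only through its ILK-K5 libraries. Parva and Lims1, the direct ILK partners of keratinocytes, had log2 fold changes of 0.020 and 0.44 and were not called. Talin and kindlin genes, which activate integrins, were not called either. Their log2 fold changes were 0.61 for Tln1, 1.34 for Tln2 (adjusted p = 0.424), 0.48 for Fermt1 and 0.54 for Fermt2. Of the 15 adaptors, 7 were higher in every ILK-K5 library than in any control library, where this was so for 10.9% of all genes tested. Tln1, Tln2, Fermt2 and Lims1 were among these, and Parva and Fermt1 were not. Macrophage markers rose in the same libraries as Parvb, and their part in its value was not tested.

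Spread among libraries differed between the chains. Control coefficients of variation were lowest for Itga6 at 11.5% and Itgb1 at 13.3%, and they were 28.9% for Itgav, 30.0% for Itgb4 and 43.8% for Itgb6. In ILK-K5 these 3 genes varied by 10.5%, 8.47% and 13.9%. Control library 2 was the lowest of all 6 libraries for both Itgav and Itgb4 and the highest of the controls for Itgb1, Itgb6 and Itgb8. Itga3 and Itga5 instead varied more among ILK-K5 libraries (33.1% and 32.5%) than among controls (24.0% and 16.8%), with ILK-K5 library 2 the highest for both. With 3 libraries per genotype these coefficients were not tested against each other.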

How the data were processed

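RNA-seq of CD34+/α6 integrin-high bulge SCs at postnatal day 21 was analysed for 3 control and 3 ILK-K5 libraries, grouped by their labels. Cells were sorted into TRIzol LS, and their RNA was amplified (NuGen Ovation) before Nextera XT library preparation. Per the submitters' processing notes, reads were aligned to GRCm38 with TopHat2 2.0.14 and Bowtie2 2.2.4 and analysed in DESeq2 1.6.3. The program that counted reads per gene, and whether it used strand, are not given in the sources used here. The deposited signal table holds read counts per gene that the authors divided by 1 DESeq2 size factor per library. In every library 100% of its values were whole multiples of 1 value (tolerance 0.01 reads), which gave back the reads. The FPKM values deposited by the authors were a fixed multiple of this signal for each gene. The authors' own comparison, deposited as means, fold changes, standard errors, Wald statistics and p-values, was not used. No column of a sample was left out (0 columns).

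Of 43274 genes, 42193 (97.5%) had a symbol in GENCODE M21, the source of coordinates. The promoter table of RefSeq held windows for 8 of the 10 integrin genes, of which 3 were shown. These were the pair with the widest change in ratio and the most abundant chain, and overlap with annotated exons was looked up for these 3 only. The 16368 genes that averaged 10 or more normalized counts were fitted with limma 3.58.1 (empirical Bayes with a trend, two-sided) on log2(normalized count + 1), genotype being the only term, with Benjamini-Hochberg adjustment over all of them and calls at 0.05; the pseudocount understates changes of low genes. On the recovered reads, edgeR 4.0.16 (quasi-likelihood) called 509 genes of 16368 and DESeq2 1.42.0 called 1051 of 16340, against 577 in limma. Ratios and shares of FPKM were compared by two-sided exact permutation tests over libraries. Other alternatives were pseudocounts of 0.1 and 5, no filter or a mean of at least 50, TMM and quantile scaling, the FPKM table, a replicate block, a term for the number that libraries 2 and 3, but not library 1, share in the labels of both genotypes, libraries 2 and 3 only, and each library left out. A floor of 3 reads per control library was used for genes with at most 3 reads in every control. Such bounds and the read counts cover counting error of amplified cDNA only. Scripts were tested on simulated data.

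Named genes were all 10 integrin genes, the called genes of each list (at most 3, largest change first, or else the gene with the smallest adjusted p), the 3 genes most like each called integrin gene, and Ilk; other genes of the lists were named after their values were seen. The integrin genes and the lists were chosen with earlier results of these data known.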

Additional observations from a re-analysis of the deposited data

How the results depend on the processing

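Every integrin gene kept its direction under the 11 alternatives that used all libraries, and Itga5 and Itga9 stayed called in each of them and with libraries 2 and 3 only. Leaving out 1 library each gave 0 to 2 integrin genes called (1 without control library 2 or ILK-K5 library 1, 0 without ILK-K5 library 2 or 3), 217 to 554 of all genes called higher and 32 to 93 lower. Over these fits the log2 fold changes ranged from -0.17 to 0.25 for Itgav and from -0.18 to 0.26 for Itgb4, both turning sign without control library 2, and from -0.094 to 0.79 for Ilk, turning without control library 1. The cause was not tested. The labels number the libraries of both genotypes 1 to 3, but same-numbered libraries deviated together only for 1 and 3 (correlations of 0.53, 0.020 and 0.31). Control library 3 went more closely with ILK-K5 library 2 (0.50) than with ILK-K5 library 3. Control library 2 went with no ILK-K5 library (at most 0.074), so that the numbers were not taken as pairs. With the replicate block 848 genes were called higher and 269 lower, 2 of them integrin genes as before, together with 3 adaptors and 3 genes of the latent Tgf-β complex. The term for the number shared by libraries 2 and 3 gave 846 higher, 286 lower, 1 further integrin chain, 2 adaptors and 3 latent Tgf-β genes, and DESeq2 gave 780 higher, 271 lower, 1 further chain and 2 latent Tgf-β genes. Adaptors called fell from 1 to 0 with a pseudocount of 0.1, a mean of at least 50, quantile scaling or libraries 2 and 3 only, and numbered 0 to 1 when 1 library was left out (0 without any 1 ILK-K5 library); latent Tgf-β genes called numbered 1 with libraries 2 and 3 only and 0 to 1 when 1 library was left out (1 without control library 1 or 3). Ratios kept their direction except Itgb4 to Itgb1, whose log2 difference ranged from -0.47 to 0.14. Reads limited Itga9 most, with 1 read in control library 2.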
